A study of Rattus norvegicus with 8 samples.

Results

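Ybx1, G3bp1, G3bp2, Caprin1, Tia1, Tial1, Rnh1, Dicer1, Ago2 and Ddx6 encode proteins tied to the action of tRNA fragments, to the control of tRNA cutting or to RNA granules, and were chosen by name for these roles. All 10 were in the deposited table of 10692 genes and all 10 were tested. The RNA came from islet cells of Sprague Dawley rats aged 10 days, which were dissociated and cultured before LNA (locked nucleic acid) oligonucleotides were introduced by lipid transfection. The control group, 4 libraries, received 60 pmol of a scrambled LNA. The inhibitor group, also 4 libraries, received 3 LNA at 20 pmol each, 60 pmol in total, directed at the tiRNA-5 of tRNA-HisGTG, tRNA-GluCTC and tRNA-GluTTC. The comparison asks whether mRNA levels differ once these fragments are inhibited. tiRNA-5 are not measured by mRNA sequencing, and the labels do not say whether libraries of a group came from separate cultures or litters, so p-values measure only the spread between libraries.

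tiRNA-5 are the 5′ pieces released when a ribonuclease, classically angiogenin, cuts a tRNA in its anticodon loop during stress. The ribonuclease inhibitor encoded by Rnh1 binds angiogenin and keeps it inactive. In human cells some of these pieces bind the cold-shock protein YB-1, the product of Ybx1, slow the start of translation and favour stress granules, the clusters of stalled mRNA that G3BP and CAPRIN1 scaffold and TIA proteins join. Shorter tRNA fragments can enter Argonaute proteins as microRNAs do, DICER1 makes microRNAs, and the helicase DDX6 links silenced mRNA to processing bodies (P-bodies), where caps are removed and mRNA is stored.

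YB-1 and its relatives are called Y-box proteins after the Y box, a promoter element that holds the CCAAT letters in inverted orientation. The promoter windows of the members are shown for these letters. RefSeq gives windows (assembly GRCr8, not the build of the RPKM values) for 8 of the 10 members, and the 5 members with 1 window each are printed here as the 250 bases before the transcription start, 5′ to 3′ on the gene's strand, with CCAAT or its reverse complement ATTGG in capitals.
Ybx1, GRCr8 chr5:138184189-138184438, minus strand: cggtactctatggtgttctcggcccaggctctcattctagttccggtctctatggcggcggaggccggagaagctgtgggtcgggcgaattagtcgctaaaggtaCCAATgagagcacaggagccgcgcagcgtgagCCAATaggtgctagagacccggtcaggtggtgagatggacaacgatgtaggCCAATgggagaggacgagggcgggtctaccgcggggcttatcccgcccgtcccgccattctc
G3bp1, GRCr8 chr10:40087283-40087532, plus strand: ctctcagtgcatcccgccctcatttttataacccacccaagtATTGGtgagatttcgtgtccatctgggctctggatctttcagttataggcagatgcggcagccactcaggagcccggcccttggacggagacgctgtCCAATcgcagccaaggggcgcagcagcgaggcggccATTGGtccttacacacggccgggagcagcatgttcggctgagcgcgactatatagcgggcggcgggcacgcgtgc
Tia1, GRCr8 chr4:120410023-120410272, plus strand: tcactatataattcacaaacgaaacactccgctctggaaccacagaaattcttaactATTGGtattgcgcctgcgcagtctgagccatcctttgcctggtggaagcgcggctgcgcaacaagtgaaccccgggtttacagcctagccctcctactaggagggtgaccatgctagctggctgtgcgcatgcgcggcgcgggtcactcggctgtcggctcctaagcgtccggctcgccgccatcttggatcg
Tial1, GRCr8 chr1:192461831-192462080, minus strand: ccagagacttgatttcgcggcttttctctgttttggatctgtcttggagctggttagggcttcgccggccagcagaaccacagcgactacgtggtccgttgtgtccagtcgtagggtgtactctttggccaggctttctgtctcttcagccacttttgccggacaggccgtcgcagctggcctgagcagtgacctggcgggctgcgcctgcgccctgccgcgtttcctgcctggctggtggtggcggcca
Dicer1, GRCr8 chr6:129457253-129457502, minus strand: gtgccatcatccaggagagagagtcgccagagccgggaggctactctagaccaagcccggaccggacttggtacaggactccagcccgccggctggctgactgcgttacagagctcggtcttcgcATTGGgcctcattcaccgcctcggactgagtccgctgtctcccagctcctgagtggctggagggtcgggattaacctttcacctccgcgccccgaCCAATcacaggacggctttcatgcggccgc
The Ybx1 window held CCAAT at 3 places, starting at bases -145, -113 and -62 from the start. The G3bp1 window also had 3, of which ATTGG began at -208 and -75 and CCAAT at -111. Dicer1 had ATTGG at -125 and CCAAT at -30, and Tia1 had ATTGG at -193. Neither string was in the Tial1 window, which says only that these letters are not in those 250 bases. G3bp2 had ATTGG at -81 in 1 of its 3 windows, and the windows of Caprin1 and Rnh1 had none. Over all 33469 windows of this length, 34.0% held at least 1 of these strings and 2.52% held at least 3. The matches are a description of sequence, and binding was not measured.

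The levels of the members spanned a wide range, from Caprin1 and G3bp2 at the top to Dicer1, Ago2 and Ybx1 at the bottom. The deposited unit is RPKM, a read count divided by gene length and by library size, so levels of different genes are compared per length. Mean RPKM over the 8 libraries was 112 for Caprin1, 61.5 for G3bp2, 50.3 for Tial1, 40.1 for Ddx6, 36.6 for Rnh1 and 28.5 for G3bp1. The low members were Tia1 at 9.59, Dicer1 at 8.44, Ago2 at 7.42 and Ybx1 at 4.39 RPKM. Caprin1 ranked 330 and Ybx1 8124 by mean RPKM among the 10692 genes. This order was the same in all 8 libraries for every pair of neighbours but Ddx6 and Rnh1, where Ddx6 was the higher in 6 of 8. Neighbours could still be close, as Dicer1 exceeded Ago2 by between 1.02 and 1.36 times and Tia1 exceeded Dicer1 by between 1.02 and 1.22 times.

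**Figure D1:**
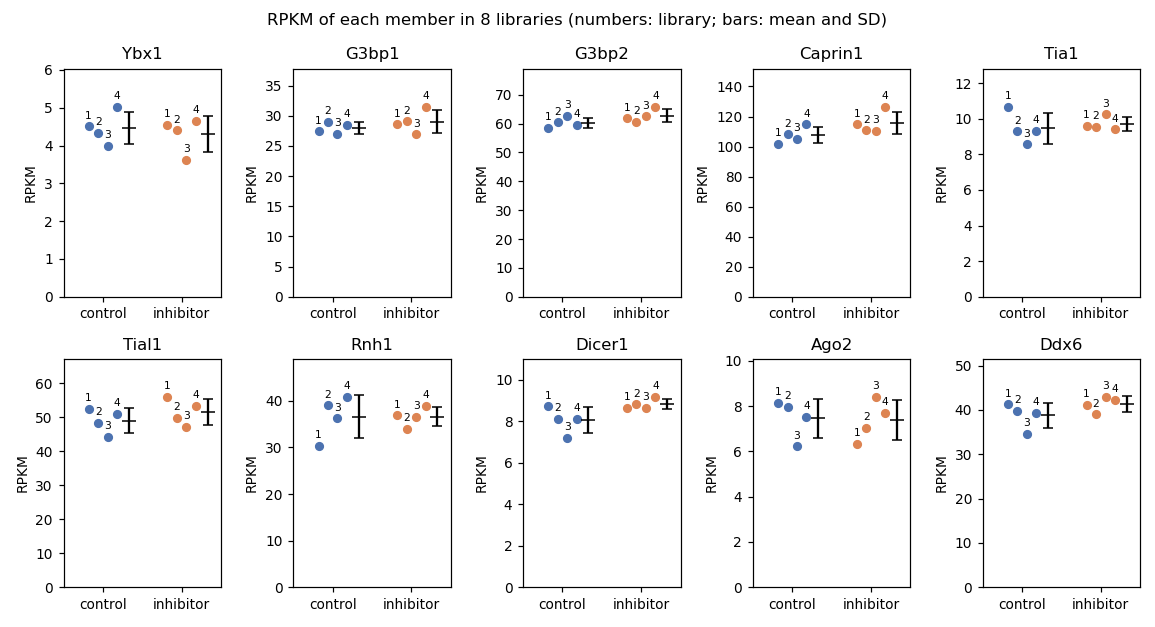
RPKM (vertical axes, from 0) of the 10 members in 4 control and 4 inhibitor libraries, 1 numbered point per library, with the mean and SD of each group. The groups overlap for each of the 10 members, and the scatter relative to the mean is widest for Ago2, Ybx1 and Rnh1.

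None of the 10 members passed the threshold. At an adjusted p under 0.05 by limma, 0 members were called, against 0.0% of the 10688 genes tested in either direction, and at an unadjusted p under 0.05, 0 members were called by limma and 0 by limma-voom, against 8.98% and 9.36% of genes. The limma share splits into 5.52% higher and 3.46% lower in inhibitor libraries. The smallest adjusted p of a member was 0.580, for Dicer1. The values of the groups overlapped for all 10 members, where 5.31% of genes had groups that did not overlap (3.7% higher and 1.61% lower in inhibitor libraries). Positive log2 differences (log2(RPKM + 1) of inhibitor less that of control libraries) were found for 8 of the 10, against 54.3% of all genes, and the median was 0.052 for the members and 0.015 for all genes tested. The count of positive members was 7 with median-of-ratios scaling, where 49.6% of all genes were positive, and 10 as shares of the summed RPKM, where 68.4% were, so members and background both moved with the scaling.

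The 95% confidence intervals limit how large a difference could have gone unseen. Across the 10 members the intervals of the fold on the RPKM + 1 scale ran from 0.841 at the lowest to 1.21 at the highest. With a pseudocount of 0.1, which shrinks low genes less, they ran from 0.811 to 1.24. Each interval included 1. As shares of the summed RPKM the highest bound was 1.32.

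**Figure D2:**
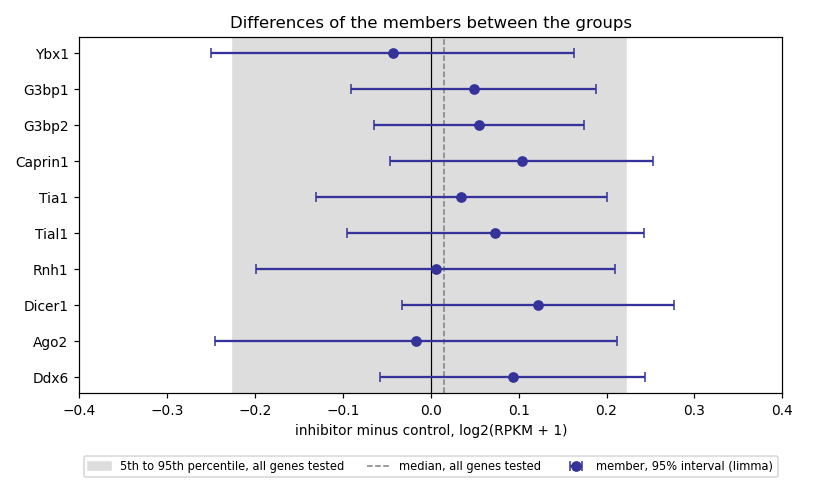
Difference between the groups (horizontal axis, inhibitor minus control in log2(RPKM + 1)) for each member with its 95% interval by limma; grey marks the 5th to 95th percentile of all 10688 genes, from -0.23 to 0.22, and the dashed line their median. All 10 intervals cross 0, and each estimate lies within the grey range.

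Ybx1, whose protein binds mRNA and some tRNA fragments, had the lowest level of the members and few reads. It stood at 4.51, 4.33, 3.99 and 5.03 RPKM in control libraries 1 to 4 and at 4.56, 4.40, 3.62 and 4.65 RPKM in inhibitor libraries 1 to 4. Control 4 was the highest and inhibitor 3 the lowest, and the other libraries lay between them without a split by group. The group means were 4.47 ± 0.434 and 4.31 ± 0.469 RPKM (SD, n = 4), and the log2 difference was -0.043 ± 0.092 (SE; limma adjusted p = 0.855). Between 125 and 180 reads per library lay behind these values, so that counting error alone gives a coefficient of variation of 7.88%, beside a measured one of 10.3% within groups. The Ybx1 difference turned positive without control 4 (0.0051) or inhibitor 3 (0.022) and as shares of the summed RPKM (0.0013).

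The reference gene table lists 21 pseudogenes named after Ybx1, and 0 of them were among the deposited genes. As many or more pseudogenes are named after 11 of the 10688 genes tested, or 0.103%, and at least 1 after 12.1%. How the authors' counting treated reads that match several such copies is not given in the sources used here, so the level of Ybx1 is uncertain, and the effect of such copies on it was not tested. Its paralogue Ybx3, which also has a cold-shock domain, has 0 such pseudogenes and stood at 48.2, 61.3, 58.6 and 58.2 RPKM in control and 48.7, 51.9, 52.4 and 50.7 RPKM in inhibitor libraries. Control 1 lay below all 4 inhibitor libraries and the other control libraries lay above them, so the groups overlapped. The log2 difference of Ybx3 was -0.14 (limma adjusted p = 0.577), and -0.22 without control 1 (limma adjusted p = 0.361); over all alternatives run the smallest adjusted p was 0.198. Ybx3 was chosen for comparison after its values were seen.

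G3bp1 and G3bp2 encode the paired scaffolds whose binding to RNA starts stress granule assembly, and both varied little between libraries. G3bp1 stood at 27.4, 29.0, 27.0 and 28.5 RPKM in control and at 28.6, 29.1, 26.9 and 31.5 RPKM in inhibitor libraries 1 to 4. G3bp2 stood at 58.6, 60.4, 62.6 and 59.5 RPKM in control and 61.8, 60.6, 62.5 and 65.9 RPKM in inhibitor libraries. Inhibitor 4 was the highest library for both, and the rest of the 2 groups intermingled. The log2 difference was 0.049 ± 0.062 for G3bp1 (SE; limma adjusted p = 0.767) and 0.055 ± 0.053 for G3bp2 (SE; limma adjusted p = 0.705). Without inhibitor 4 the G3bp1 difference was 0.0097. The coefficient of variation within groups was 5.25% for G3bp1 and 3.24% for G3bp2, against a median of 10.2% over all genes tested. G3bp2 was less variable than all but 1.19% of genes.

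The ratio of G3bp2 to G3bp1 lay within a narrow range. It was 2.14, 2.08, 2.32 and 2.09 in control and 2.16, 2.08, 2.32 and 2.09 in inhibitor libraries 1 to 4. Each group thus held 1 library, library 3 in both, with a higher ratio than its other 3. The groups covered nearly the same range, and libraries of the same number had close ratios. Whether the numbers mark pairs is not known. The difference between the groups was 0.0059 on the log2 scale (two-sided exact permutation test, p = 0.743; adjusted over the 2 ratios, p = 0.743; the smallest p possible is 0.0286). With same-numbered libraries taken as pairs, the exact permutation p was 0.125, the smallest p possible in that case. In reads the order of the 2 genes was the opposite, with between 0.593 and 0.661 G3bp2 reads per G3bp1 read. The gene length behind the RPKM of G3bp2 was 0.285 times that of G3bp1, so which of the pair is the more abundant rests on those lengths. The gene table also names 8 pseudogenes after G3bp1 and 1 after G3bp2.

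Caprin1, which binds G3BP and RNA and joins the granule scaffold, was the most abundant member. It stood at 102, 108, 105 and 115 RPKM in control and at 115, 111, 110.4 and 127 RPKM in inhibitor libraries 1 to 4. Control 4 was as high as inhibitor 1 and above inhibitors 2 and 3, so the groups overlapped, while inhibitor 4 lay above the rest. The means were 108 ± 5.47 and 116 ± 7.58 RPKM (SD, n = 4), a log2 difference of 0.10 ± 0.067 (SE; limma adjusted p = 0.605). With 8641 to 11843 reads per library, counting error was 1.00% against a coefficient of variation within groups of 5.92%. Without inhibitor 4 the Caprin1 difference was 0.059. With median-of-ratios scaling the means were 108 ± 2.60 and 114 ± 5.40.

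Tia1 and Tial1 encode related RNA-binding proteins that silence mRNA and join stress granules. Tia1 stood at 10.7, 9.30, 8.57 and 9.33 RPKM in control and 9.60, 9.56, 10.2 and 9.40 RPKM in inhibitor libraries. Tial1 was at 52.5, 48.4, 44.2 and 51.0 RPKM in control and at 56.0, 49.9, 47.2 and 53.4 RPKM in inhibitor libraries. For both genes control 3 was the lowest library, and for Tia1 the highest was also a control library. The log2 difference was 0.035 ± 0.074 for Tia1 (SE; limma adjusted p = 0.855) and 0.073 ± 0.075 for Tial1 (SE; limma adjusted p = 0.720). The Tial1 difference was 0.026 without control 3 and 0.034 without inhibitor 1.

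Tial1 exceeded Tia1 in every library, by per-length level and by reads. The ratio of their RPKM was 4.91, 5.21, 5.16 and 5.47 in control and 5.83, 5.22, 4.60 and 5.68 in inhibitor libraries 1 to 4. The lowest and the highest ratio were both in inhibitor libraries, and the spread of the log2 ratio was 0.063 (SD) in control and 0.15 in inhibitor libraries. The difference between the groups was 0.036 on the log2 scale (two-sided exact permutation test, p = 0.657; adjusted over the 2 ratios, p = 0.743). In reads Tial1 exceeded Tia1 by between 4.19 and 5.30 times, since the lengths behind the RPKM differed little (0.909 for Tial1 over Tia1).

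**Figure D3:**
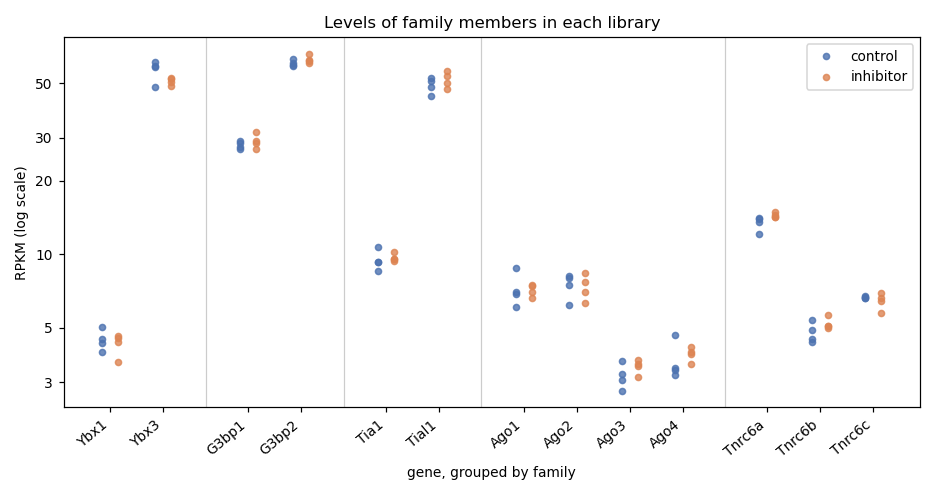
RPKM (vertical axis, log scale) of family members in each control and inhibitor library, 1 point per library. Ybx3, G3bp2 and Tial1 lie above Ybx1, G3bp1 and Tia1 in all 8 libraries, and Ago1 and Ago2 lie above Ago3 and Ago4.

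Rnh1, the inhibitor of angiogenin and other ribonucleases of its family, had group means that lay well within the spread of its libraries. It stood at 30.4, 39.1, 36.3 and 40.8 RPKM in control and at 36.9, 34.0, 36.6 and 38.9 RPKM in inhibitor libraries 1 to 4. Control libraries held both the lowest and the highest value, and the inhibitor libraries lay between them. The means were 36.7 ± 4.58 and 36.6 ± 2.04 RPKM (SD, n = 4), a log2 difference of 0.0055 ± 0.091 (SE; limma adjusted p = 0.989). Control 1, where Rnh1 was lowest, was also the library with the lowest summed level of 8 mesenchymal markers (2234 RPKM, against 2612 to 5022 in the other 7 libraries); the part of those cells in the result was not tested. Without control 1 the difference was -0.079, and without both control 1 and inhibitor 4 it was -0.11 (limma adjusted p = 0.623 and 0.462).

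Dicer1, the ribonuclease that makes microRNAs from their hairpins, was the member nearest the threshold. It stood at 8.73, 8.12, 7.21 and 8.12 RPKM in control and at 8.65, 8.83, 8.67 and 9.18 RPKM in inhibitor libraries 1 to 4. Control 1 lay above inhibitors 1 and 3, so the groups overlapped, and the other 3 control libraries lay below all inhibitor libraries. With median-of-ratios scaling control 1 held the highest value, 9.07, above all inhibitor libraries. The means were 8.05 ± 0.625 and 8.83 ± 0.246 RPKM (SD, n = 4), a ratio of 1.10. The log2 difference was 0.12 ± 0.069 (SE; limma unadjusted p = 0.109, adjusted p = 0.580), positive under all alternatives run, with values from 0.077 to 0.17 and adjusted p of at least 0.399. Drosha, the nuclear enzyme that acts before Dicer1, had a log2 difference of -0.031 (limma adjusted p = 0.858), and was chosen for comparison after its values were seen.

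Ago2, the Argonaute protein that can cut its target RNA, varied most among the members. Its levels were 8.14, 7.97, 6.23 and 7.53 RPKM in control and 6.34, 7.04, 8.41 and 7.70 RPKM in inhibitor libraries 1 to 4. Both groups spanned a similar range, and the lowest and the highest inhibitor library lay close to those of the control group. The means were 7.47 ± 0.868 and 7.37 ± 0.886 RPKM (SD, n = 4), a log2 difference of -0.017 ± 0.10 (SE; limma adjusted p = 0.964). The coefficient of variation was 11.8% within groups, of which counting error with 459 to 652 reads would give 4.21%. Among the 4 Argonaute genes, mean RPKM was 7.18 for Ago1 and 7.42 for Ago2, and 3.33 for Ago3 and 3.79 for Ago4. Ago1, Ago3 and Ago4 had log2 differences of -0.0027, 0.098 and 0.074 (limma adjusted p = 0.995, 0.684 and 0.790).

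Ddx6, the helicase that holds translationally silent mRNA in P-bodies, stood at 41.3, 39.8, 34.6 and 39.4 RPKM in control libraries and at 41.2, 39.0, 42.9 and 42.3 RPKM in inhibitor libraries. Control 3 was the lowest, and inhibitor 2 lay below 3 of the 4 control libraries. The means were 38.8 ± 2.89 and 41.4 ± 1.74 RPKM (SD, n = 4), with a log2 difference of 0.093 ± 0.068 (SE; limma adjusted p = 0.630). Without control 3 that difference was 0.041. In the authors' deposited columns the log2 fold change of the members lay between -0.071 for Ybx1 and 0.11 for Dicer1. The authors' adjusted p lay between 0.718 for Caprin1 and 0.981 for Tia1, but their unadjusted p was smallest for Dicer1. Among the members, their adjusted p thus did not keep the order of their unadjusted p.

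The extremes of several members fell in the same libraries. Control 3 held the lowest value of 5 members (Tia1, Tial1, Dicer1, Ago2 and Ddx6), and inhibitor 4 the highest value of 4 (G3bp1, G3bp2, Caprin1 and Dicer1). The median log2 deviation of the 10 members from their own means was -0.14 in control 3 and 0.092 in inhibitor 4, and between -0.018 and 0.046 in the other 6 libraries. Of the reads in the deposited genes, the insulin genes Ins1 and Ins2 made up 14.8% in control 3 and 9.37% in inhibitor 4, the lowest share. Their share was also high in inhibitor 2, at 15.2%, where 0 members were lowest and the median deviation was -0.0079. The part of the insulin share in these deviations was not tested. Over all genes the median-of-ratios factor was 0.968 in control 3 and 1.04 in inhibitor 4, and 0.962 to 1.03 elsewhere. How often all genes had their extremes in control 3 or inhibitor 4 was not counted. With median-of-ratios scaling, control 3 still held the lowest value of Tia1, Tial1, Dicer1 and Ddx6, and inhibitor 4 the highest of G3bp1 and Caprin1.

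**Figure D4:**
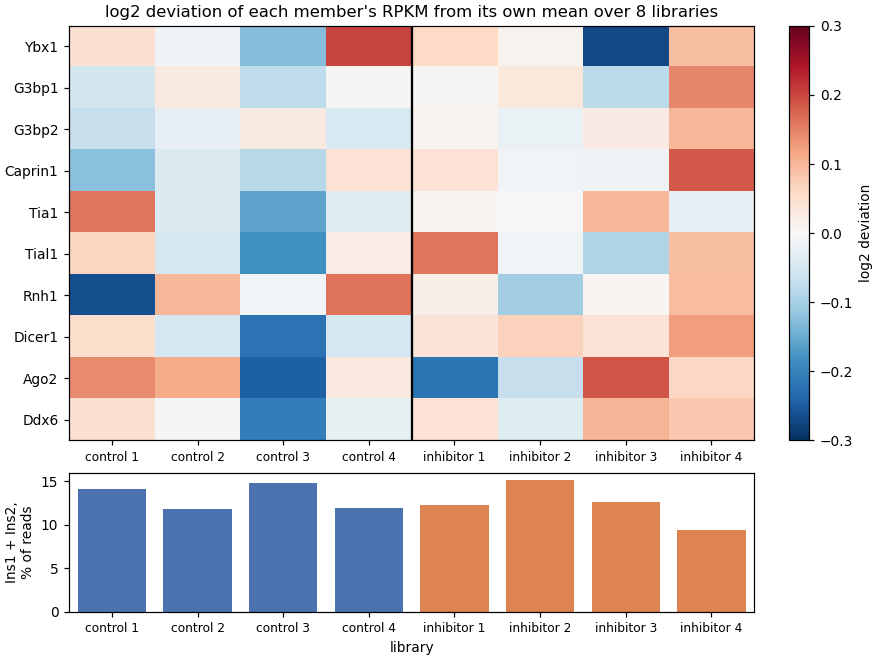
Upper panel: log2 deviation of each member's RPKM from its own mean over the 8 libraries (colour). Lower panel: share of Ins1 and Ins2 among the reads in the deposited genes (percent). In control 3, 1 of the 10 members is above its own mean, and in inhibitor 4, 9 of the 10 are; the Ybx1 and Rnh1 extremes fall in other libraries.

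The libraries held between 16035607 and 19049788 reads in the listed genes. All 9 beta-cell, 5 alpha-cell and 3 delta-cell markers were among them, with summed beta-cell markers at 202650 to 255323 RPKM in control and 159076 to 254973 RPKM in inhibitor libraries. Summed delta-cell markers, led by the hormone gene Sst, were at 599 to 1061 RPKM in control and 413 to 616 RPKM in inhibitor libraries, where 2 inhibitor libraries lay above the lowest control library; their part in the results was not tested. Of the markers of other cells, 8 of 11 mesenchymal genes were listed (2234 to 5022 RPKM in control and 2612 to 4127 RPKM in inhibitor libraries), and 2 of 5 endothelial, 1 of 7 acinar, 2 of 5 ductal and 1 of 6 immune genes. The defining Pecam1, Ptprc, Krt19 and Prss1 were not analysed here. Eif2s3y, a Y-linked gene, was at 0.257 RPKM in inhibitor 4 and between 6.86 and 18.8 RPKM in the other 7. Kdm5d, also Y-linked, was at 0.120 RPKM in inhibitor 4 and between 2.77 and 8.73 RPKM in the other 7, so inhibitor 4 stood apart for both. The Y-linked Ddx3y did not share this, at 1.42 RPKM in inhibitor 4 and between 0.909 and 1.39 RPKM in the other 7. Ddx3y lay near the lowest group mean of any listed gene (1.00 RPKM) in every library, so it was too low to tell. The labels do not give the sex of the animals. The part of inhibitor 4 in the results above was not tested beyond leaving it out. In bulk RNA, fewer cells of a type and less RNA per cell cannot be told apart.

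The wider pathway was described with 7 lists of 137 genes, of which 117 were tested. The 10 members are among the 117, so the counts and medians of the lists include them. At an adjusted p under 0.05, 0 of the 117 were called, and 7 had an unadjusted p under 0.05, or 5.98% against 8.98% of all genes. The groups did not overlap for 2, or 1.71% against 5.31%. The median log2 difference was 0.037 for the 117 genes and 0.015 for all genes. The shares at an unadjusted p under 0.05 and without overlap both lay below those of all genes. Positive log2 differences were found for 73 of the 117, against 54.3% of all genes.

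Of 30 stress granule genes tested, 5 of them members, 21 had a positive and 9 a negative log2 difference, with a median of 0.047 and 0 called. The 3 non-members with the smallest p were Fmr1 and Fxr1, related RNA-binding proteins that bind ribosomes and mRNA, and Tardbp, the RNA-binding protein TDP-43. Fmr1 was at 11.0 ± 0.925 and 13.0 ± 1.41 RPKM, Fxr1 at 27.3 ± 1.73 and 30.9 ± 2.71 RPKM and Tardbp at 61.3 ± 4.61 and 68.2 ± 4.45 RPKM in control and inhibitor libraries (mean ± SD of 4; adjusted p by limma = 0.541, 0.550 and 0.554). The groups overlapped for each of these. Fxr2, a relative of Fmr1 and Fxr1, went the other way, with a log2 difference of -0.069 (limma adjusted p = 0.701). Its levels were 44.9 ± 2.47 and 42.8 ± 2.55 RPKM (mean ± SD of 4), and it was chosen for comparison after its values were seen. Of 11 genes of cold-shock and tRNA-fragment binding proteins, 4 were positive and 7 negative, with a median of -0.030. Ssb, the La protein that binds the ends of new tRNA transcripts, was at 23.4 ± 1.76 and 27.2 ± 1.26 RPKM, and Carhsp1, a cold-shock domain protein, at 31.9 ± 1.54 and 27.8 ± 2.66 RPKM (mean ± SD of 4; adjusted p by limma = 0.541 for both). Rbpms, an RNA-binding protein, was at 49.8 ± 2.35 and 45.1 ± 2.83 RPKM (mean ± SD of 4; adjusted p by limma = 0.550).

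Of 23 genes of the small-RNA machinery, 15 were positive and 8 negative, with a median of 0.042 and 0 called. Snd1 encodes Tudor-SN, a nuclease-domain protein of silencing complexes that also enters stress granules. It stood at 79.6, 83.0, 80.7 and 79.6 RPKM in control and at 72.6, 71.5, 69.0 and 73.3 RPKM in inhibitor libraries 1 to 4. All 4 control libraries thus lay above all 4 inhibitor libraries, which held in that direction for 1.61% of genes. The log2 difference was -0.17 ± 0.051 (SE; limma unadjusted p = 0.00772, adjusted p = 0.541), and across the alternatives it lay between -0.19 and -0.12. Tnrc6a, a GW182 protein that joins Argonaute to deadenylases, was the other gene without overlap, at 13.4 ± 0.900 and 14.4 ± 0.287 RPKM (mean ± SD of 4; adjusted p by limma = 0.601), and is named because the count is small. Tent2, a poly(A) polymerase that adds single nucleotides to microRNAs, was at 13.5 ± 1.14 and 16.1 ± 1.63 RPKM, and Ajuba, a LIM protein of P-bodies, at 10.6 ± 1.98 and 8.08 ± 1.95 RPKM (mean ± SD of 4; adjusted p by limma = 0.541 and 0.554).

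P-body and decapping genes numbered 19, with 12 positive and 7 negative differences and a median of 0.013. Xrn1, the 5′ to 3′ exonuclease, was at 8.42 ± 0.967 and 9.52 ± 0.401 RPKM, Lsm3, of the LSM ring, at 17.6 ± 2.099 and 20.6 ± 2.79 RPKM, and Edc4, a decapping scaffold, at 16.1 ± 1.53 and 14.9 ± 0.762 RPKM (mean ± SD of 4; adjusted p by limma = 0.567, 0.575 and 0.622). For the 15 genes of the CCR4-NOT deadenylase and its partners, 10 differences were positive and 5 negative, with a median of 0.037. Cnot6, a catalytic subunit, was at 21.9 ± 2.30 and 25.7 ± 1.60 RPKM, Cnot3, a structural subunit, at 24.2 ± 2.47 and 21.9 ± 1.51 RPKM, and Btg2, an antiproliferative partner, at 29.7 ± 2.56 and 32.4 ± 2.78 RPKM (mean ± SD of 4; adjusted p by limma = 0.541, 0.588 and 0.615). The groups overlapped for each of the 6 genes.

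The control of tRNA cutting and repair was covered by 14 tested genes, 7 positive and 7 negative, with a median of -7.05e-05. Elac2, which trims the 3′ ends of new tRNA, was at 9.33 ± 0.315 and 8.66 ± 0.563 RPKM, and Tsen54, of the tRNA splicing endonuclease, at 8.12 ± 0.715 and 7.56 ± 0.711 RPKM (mean ± SD of 4; adjusted p by limma = 0.613 and 0.697). Ang, Rnase4 and Rnase1 were not analysed here. At the eIF2 step that precedes stress granules, 4 of 5 tested genes were positive, with a median of 0.10, and Eif2s1, the factor's regulated subunit, was at 72.2 ± 4.54 and 80.9 ± 10.96 RPKM (mean ± SD of 4; adjusted p by limma = 0.592). Inhibitor 4 was the highest library for Eif2s1, at 96.1 RPKM, and its log2 difference of 0.16 was 0.071 without that library. Ppp1r15b, a phosphatase subunit that reverses eIF2 phosphorylation, was at 12.4 ± 0.804 and 13.4 ± 0.442 RPKM, and Eif2ak2, the kinase PKR, at 10.3 ± 1.51 and 12.0 ± 3.30 RPKM (mean ± SD of 4; adjusted p by limma = 0.593 and 0.678).

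**Figure D5:**
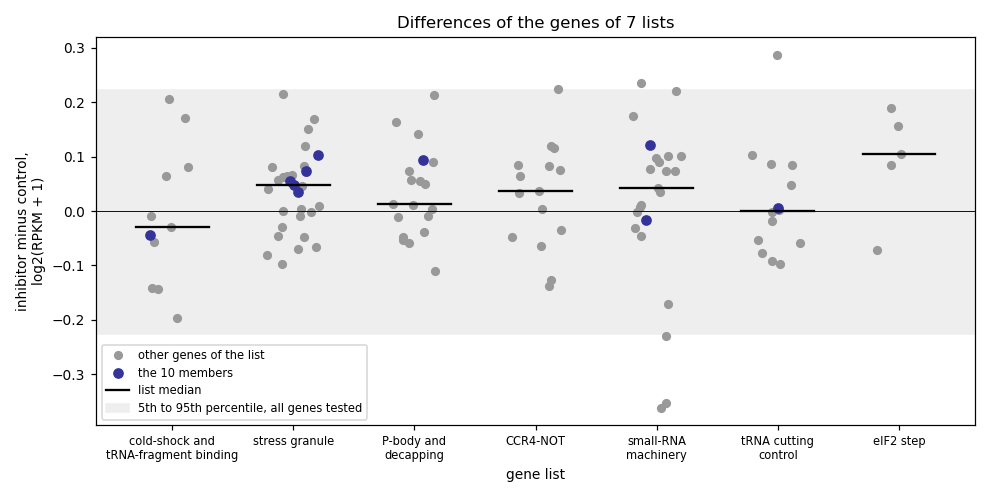
Difference between the groups (vertical axis, inhibitor minus control in log2(RPKM + 1)) for the tested genes of 7 lists, with the 10 members in blue, list medians as black lines and the 5th to 95th percentile of all genes in grey. List medians range from -0.030 to 0.10, and few genes lie outside the grey band.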

How the data were processed

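mRNA of 8 libraries was sequenced; per the submitters' processing notes STAR 2.5.3a, RSEM 1.3.0, HISAT2 2.1.0, HTSeq and build rn6 were used, and which of them gave the RPKM, the annotation and the handling of strand are not given in the sources used here. Per the file headers, the authors deposited 1 RPKM column per library with their own fold (the ratio of group means), log2 fold change, p-value and adjusted p-value. The lowest group mean of any listed gene was 1.00 RPKM. Genes at 1 RPKM or more in 4 or more libraries, 10688 in all, were tested on log2(RPKM + 1) by limma (version 3.58.1, R version 4.3.3; group alone, intensity trend, two-sided, Benjamini-Hochberg over all genes, threshold 0.05). Whole reads were recovered from the RPKM steps for 10692 of 10692 genes (tolerance 0.0001 reads) and gave depth, length ratios and limma-voom; total sequenced reads are unknown. Paralogue ratios were tested with scipy 1.17.1. Scripts were tested on simulated data. The rule that named the members used no measured values, but members and lists were chosen with earlier results of these data known. Every member is named, with, per list, the 3 other genes of smallest p, of which 1 is not reported here. No 2 libraries of a group agreed within sampling noise. Sequences are from RefSeq (GRCr8).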

Additional observations from a re-analysis of the deposited data

Results flagged for a closer look

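A library far from the other 3 of its group was found in 2 of 64 groups examined, and chance flags about 1 in 20 groups. Cnot3, of the CCR4-NOT deadenylase, was at 24.1 RPKM in inhibitor 2 and between 21.06 and 21.1 RPKM in the other inhibitor libraries. Eif2ak2, the kinase PKR, was at 16.9 RPKM in inhibitor 4 and between 9.92 and 10.9 RPKM in the others. None of the 10 members and neither paralogue ratio had such a library.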

How the results depend on the processing

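0 genes passed the threshold under each alternative run, and 0 of the 10 members did; the smallest adjusted p of a member was 0.399 by limma, for Dicer1. Genes at an unadjusted p under 0.05 numbered 960, between 422 (without inhibitor 1) and 1273 with 1 library left out (494 without control 2), and 1699 without control 1 and inhibitor 4 together. The split was 590 higher and 370 lower, but 449 and 540 with median-of-ratios scaling, 642 and 106 as shares of the summed RPKM and 497 and 503 with limma-voom. As shares of the summed RPKM, Ybx1 was at 0.0013 and Ago2 at 0.031 (log2 difference). Rnh1 was at -0.018 with median-of-ratios scaling and -0.013 with limma-voom. Without control 1 and inhibitor 4 together, Rnh1 was at -0.11, Ago2 at 0.0016, the Tial1 to Tia1 ratio at -0.022 and Eif2ak2 at -0.058. With 1 library left out, differences ran from -0.086 to 0.022 for Ybx1, -0.0072 to 0.089 for Tia1, -0.079 to 0.059 for Rnh1 and -0.091 to 0.044 for Ago2, from -0.028 to 0.041 for the G3bp2 to G3bp1 ratio and from -0.0088 to 0.10 for the Tial1 to Tia1 ratio; the cause was not tested. G3bp1, G3bp2, Tial1, Caprin1, Dicer1 and Ddx6 stayed positive under the alternatives run, but not at one size: without control 1 and inhibitor 4 together G3bp1 was at 8.79e-05, Caprin1 at 0.035 and Eif2s1 at 0.027. Ybx1 was not tested at a minimum of 5 RPKM. Same-numbered libraries had correlations of 0.138, -0.273, 0.319 and 0.454, not all above 0.1, and control 1 correlated best with inhibitor 2 (0.422). Inhibitors 1, 3 and 4, but not inhibitor 2, each correlated best with the control of the same number. The G3bp2 to G3bp1 ratio was higher in the inhibitor library of 4 of 4 same-numbered pairs. The main tests took the libraries to share only a number, and whether the numbers mark pairs is not known. With a replicate block 1109 genes had an unadjusted p under 0.05, and the smallest adjusted p of a member by limma was 0.521. The paralogue ratios kept their differences of 0.0059 and 0.036 (exact permutation p = 0.125 and 0.625, where 0.125 is the smallest p possible). Depth limits Ybx1 most, with 125 to 180 reads.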
